A study of Danio rerio and Xiphophorus maculatus with 12 samples.

Results

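Most of the genes described here encode carriers that move neutral amino acids across the plasma membrane. Among them is slc7a6, whose response to heart injury led to the choice of this set. The set also holds slc3a2a and slc3a2b, whose product does not itself carry amino acids, and slc43a3b, a family member by sequence. The members were chosen by gene symbol: slc7a5, slc7a6, slc7a7, slc7a8a, slc7a8b, slc3a2a, slc3a2b, slc38a2, slc43a2b and slc43a3b. These 10 symbols named 25 annotated genes of the 56729 in both count tables, 10 of 32520 in zebrafish and 15 of 24209 in platyfish. In platyfish slc38a2 was the symbol of 7 genes on chromosome 17, and slc7a8b was not analysed here. The list was drawn up after the fall of slc7a6 in platyfish and its difference between the species had been seen. Those slc7a6 values are therefore a description and carry no test, and the other members are not independent evidence of any direction.

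The data were bulk poly(A) RNA sequencing counts from ventricles of wild-type adult zebrafish and of wild-type adult platyfish, a livebearing teleost. In each species 3 libraries came from ventricles collected 7 days after cryoinjury, in which part of the ventricle wall is killed by freezing, and 3 came from uninjured ventricles. Each library was made from a pool of 8 ventricles, from which the atrium and the bulbus arteriosus had been removed, so n is 3 pools per group throughout. The uninjured fish had undergone no procedure at all, so that freezing and the surgery around it cannot be told apart. A ventricle holds many cell types, and in such bulk samples fewer cells of a type and less RNA per cell cannot be told apart.

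Most of what is known of these carriers comes from mammals. SLC3A2 (also called CD98 or 4F2hc) is a heavy chain that does not itself carry amino acids but brings SLC7 light chains to the plasma membrane. Among the light chains, SLC7A5 and SLC7A8 exchange large neutral amino acids such as leucine, while SLC7A6 and SLC7A7 exchange cationic amino acids such as arginine for neutral ones plus sodium. SLC38A2 takes up small neutral amino acids such as alanine and glutamine together with sodium. SLC43A2 lets branched-chain amino acids and phenylalanine pass down their gradient without a heavy chain. SLC43A3 belongs to the same family by sequence, but in mammals it has been reported to carry purine nucleobases. Leucine that enters through such carriers is one of the signals that activate the kinase complex mTORC1.

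The libraries held between 20735097 and 27994535 counts in zebrafish and between 19073562 and 31148127 in platyfish. Zebrafish cryoinjured replicates 2 and 3 detected fewer genes than the other zebrafish libraries, 16530 and 15976 genes with at least 1 count against 18102 to 18819. Markers of the cell types of the ventricle were present in both species. The summed level of 6 fibroblast markers was 263 to 335 CPM (counts scaled to the library total) in cryoinjured and 110 to 143 CPM in uninjured zebrafish ventricles, with 2 of 6 tested markers higher. In platyfish it was 266 to 550 CPM in cryoinjured and 74.0 to 91.7 CPM in uninjured ventricles, with 3 of 5 tested markers higher. In zebrafish 3 of 6 tested cardiomyocyte marker genes were lower, with sums of 42981 to 51609 CPM in cryoinjured and 52415 to 60375 CPM in uninjured ventricles. In platyfish none of 4 tested cardiomyocyte markers was called, and the sums overlapped, at 36724 to 42910 CPM in cryoinjured and 36834 to 41196 CPM in uninjured ventricles. The part of such shifts in the results that follow was not tested.

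The largest change of a transporter in platyfish was that of slc7a6 (ENSXMAG00000023691, chromosome 4). It had 56.0, 73.2 and 71.0 normalised counts in the cryoinjured libraries, against 198, 272 and 312 in the uninjured libraries. Every cryoinjured library lay far below every uninjured one. The means were 66.7 ± 9.33 and 261 ± 58.2 (SD, n = 3 each), which is 0.257 times the uninjured level, with a log2 fold change of -1.96 ± 0.23 (SE). These values rest on 61, 79 and 68 raw counts in cryoinjured libraries and on 220, 266 and 244 in uninjured libraries. Over 13 alternative scalings, filters, tests and sets of libraries the log2 fold change lay between -2.13 and -1.82.

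In zebrafish slc7a6 (ENSDARG00000054423, chromosome 7) leaned the other way. It had 336, 341 and 541 normalised counts in the cryoinjured libraries, against 241, 305 and 201 in the uninjured libraries. The groups did not overlap, but cryoinjured replicate 3 was well above the other two, and the gap between the lowest cryoinjured and the highest uninjured library was small. The means of 406 ± 117 in cryoinjured and 249 ± 52.5 in uninjured ventricles (SD, n = 3 each) gave a log2 fold change of 0.71 ± 0.24 (SE). Its Benjamini-Hochberg adjusted p over all genes was 0.201 in edgeR's quasi-likelihood test, so no rise was shown. The adjusted p lay between 0.0818 and 0.469 over 13 alternatives, and the log2 fold change was 0.44 without cryoinjured replicate 3. The zebrafish response is part of the species difference that led to the choice of the set. These adjusted p values are therefore a description and no test. As a description, the injury response of slc7a6 in zebrafish minus that in platyfish was 2.69 ± 0.36 (SE) on the log2 scale.

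**Figure D1:**
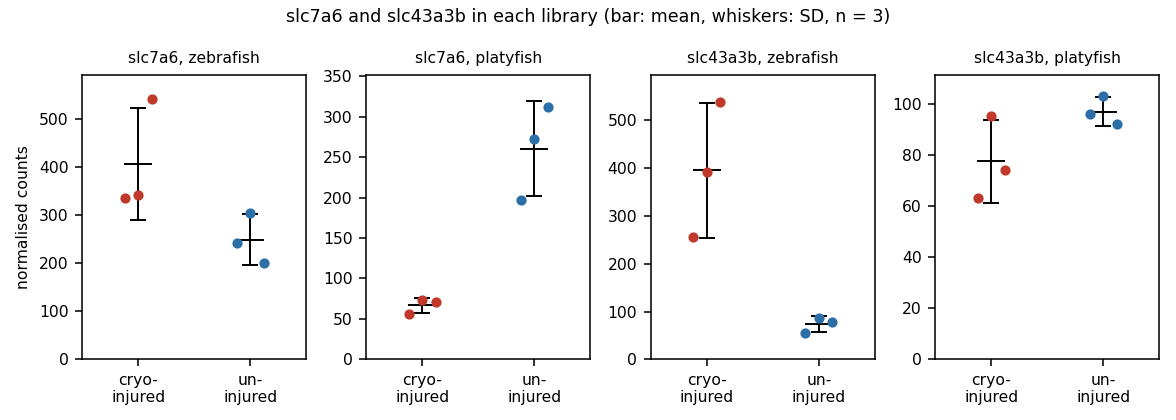
Normalised counts of slc7a6 and slc43a3b (vertical axes, each from 0) in each library of each species, cryoinjured at the left and uninjured at the right of each panel. Points are libraries, horizontal bars are means and whiskers are SD over 3 libraries. Cryoinjured platyfish libraries have 56.0 to 73.2 counts of slc7a6 against 198 to 312 in uninjured ones, and cryoinjured zebrafish libraries have 257 to 538 counts of slc43a3b against 55.6 to 86.9 in uninjured ones.

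The gene slc7a6os is named for its position on the opposite strand beside slc7a6, and in the RefSeq annotation of zebrafish (assembly GRCz12tu) both genes are neighbours whose spans do not overlap. It is not a transporter gene and was looked at after its values had been seen. In platyfish slc7a6os had 611, 537 and 605 normalised counts in cryoinjured libraries, against 624, 699 and 612 in uninjured libraries, a log2 fold change of -0.14 ± 0.13 (SE, edgeR adjusted p 0.531). In zebrafish it had 458, 630 and 512 in cryoinjured libraries, against 572, 503 and 550 in uninjured libraries, a log2 fold change of -0.02 ± 0.16 (SE, edgeR adjusted p 0.964). The large separation of the platyfish groups seen for slc7a6 was not present in the counts of platyfish slc7a6os. In platyfish both genes are on chromosome 4, but whether they lie side by side there was not checked. Whether the authors' counting used the strand is not given in the sources used here.

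Among the other light chains, slc7a8a, the counterpart of a mammalian exchanger of large neutral amino acids, was tested in both species. In zebrafish slc7a8a (ENSDARG00000075831, chromosome 7) had 469.8, 496 and 553 normalised counts in cryoinjured libraries, against 391, 383 and 361 in uninjured libraries. All cryoinjured libraries were above all uninjured ones, with little spread in either group. The log2 fold change was 0.42 ± 0.15 (SE), and the edgeR adjusted p of 0.211 never fell under 0.0876 in 13 alternatives. In platyfish slc7a8a (ENSXMAG00000001695, chromosome 14) had 1618, 1723 and 1249.5 normalised counts in cryoinjured libraries, against 1508, 1653 and 2131 in uninjured libraries. There the groups overlapped, and the log2 fold change of -0.20 ± 0.18 (SE) had an edgeR adjusted p of 0.524. The response in zebrafish minus that in platyfish was 0.65 ± 0.23 (SE) on the log2 scale, which did not pass the threshold (edgeR adjusted p 0.145).

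The light chain slc7a7, which in humans is the gene of lysinuric protein intolerance, was detected in platyfish. There slc7a7 (ENSXMAG00000001462, chromosome 14) had 380.2, 433 and 307 normalised counts in cryoinjured libraries, against 233, 349.5 and 459.5 in uninjured libraries. The groups overlapped widely, and the uninjured libraries spread more than the cryoinjured ones. Its log2 fold change of 0.11 ± 0.25 (SE, edgeR adjusted p 0.821) turned to -0.12 without uninjured replicate 1 and to -0.01 without cryoinjured replicate 2.

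In mammals slc7a5 encodes LAT1, a leucine exchanger of growing cells. In platyfish slc7a5 (ENSXMAG00000016047, chromosome 2) was near the limit of what these depths can measure, with 12, 15 and 13 raw counts in cryoinjured libraries and 12, 10 and 7 in uninjured libraries. Its 11.02, 13.9 and 13.6 normalised counts in cryoinjured libraries lay just above the 10.8, 10.2 and 8.96 in uninjured libraries. With a log2 fold change of 0.35 ± 0.43 (SE, edgeR adjusted p 0.654), the error was larger than the difference.

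In zebrafish slc7a5 (ENSDARG00000099265, chromosome 25), slc7a7 (ENSDARG00000055226, chromosome 7) and slc7a8b (ENSDARG00000054343, chromosome 2) had 0 counts in all 6 libraries. A count of 0 allows a level of up to 3 counts, which is 0.107 to 0.145 CPM in a single zebrafish library and 0.0206 CPM over all 6, for counting error only. Such zeros were common in the zebrafish table, where 10700 genes (32.9%) had no count in any library, against 3491 (14.4%) in the platyfish table. These 3 genes were therefore not detected at this depth and have no response to report.

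The heavy chain, without which the light chains stay inside the cell, has a pair of genes in each table. In zebrafish slc3a2b (ENSDARG00000037012, chromosome 21) had 937, 779 and 1024 normalised counts in cryoinjured libraries, against 745, 658 and 1129 in uninjured libraries. The groups overlapped, since uninjured replicate 3 was the highest of all 6 libraries. The log2 fold change was 0.11 ± 0.20 (SE, edgeR adjusted p 0.829), and -0.04 without uninjured replicate 2. Zebrafish slc3a2a (ENSDARG00000036427, chromosome 7) had 29.3, 18.3 and 56.9 normalised counts in cryoinjured libraries, against 23.2, 26.4 and 36.5 in uninjured libraries. Its log2 fold change of 0.28 ± 0.52 (SE, edgeR adjusted p 0.837) rested on cryoinjured replicate 3, without which it was -0.27.

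In platyfish slc3a2a (ENSXMAG00000008626, chromosome 14) could be tested, while slc3a2b (ENSXMAG00000004796, chromosome 19) had 1 count in all 6 libraries, in uninjured replicate 2, and was not tested. Platyfish slc3a2a had 4562, 5373 and 4150.4 normalised counts in cryoinjured libraries, against 6728, 7210.0 and 6620.2 in uninjured libraries. The groups did not overlap, and the uninjured libraries lay close together. The mean was 0.685 times the uninjured level (log2 fold change -0.55 ± 0.15 SE, edgeR adjusted p 0.0802). That adjusted p missed the threshold of 0.05, whereas DESeq2 gave -0.56 with an adjusted p of 0.00574, and the authors' deposited table lists -0.54 with an adjusted p of 0.00676. For slc3a2a the response in zebrafish minus that in platyfish was 0.83 ± 0.41 (SE) on the log2 scale (edgeR adjusted p 0.283). With slc3a2a and slc3a2b summed in each species it was 0.69 ± 0.27 (SE, edgeR adjusted p 0.189).

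**Figure D2:**
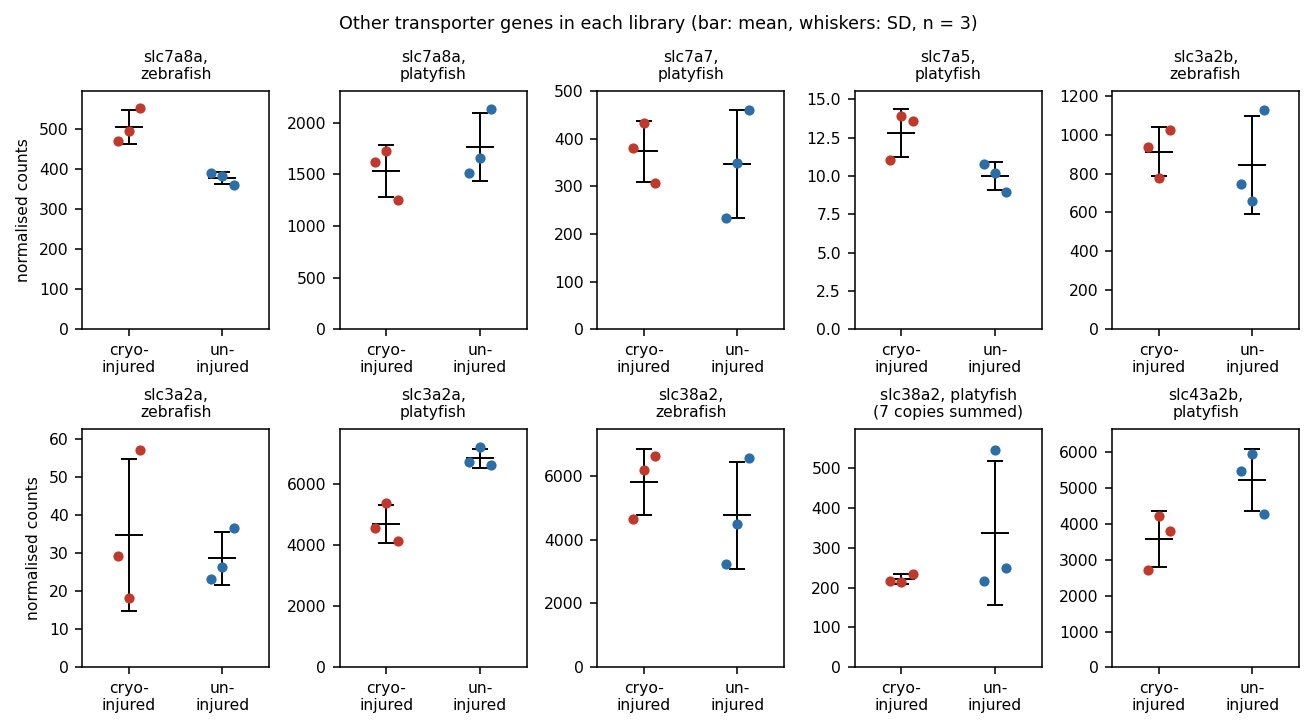
Normalised counts of the other transporter genes that could be tested (vertical axes, each from 0) in each library, cryoinjured at the left and uninjured at the right of each panel. Points are libraries, horizontal bars are means and whiskers are SD over 3 libraries. Platyfish slc3a2a separates the groups, at 4150.4 to 5373 counts in cryoinjured and 6620.2 to 7210.0 in uninjured libraries. Zebrafish slc7a8a and platyfish slc7a5 and slc43a2b also separate them. The groups overlap for zebrafish slc3a2a, slc3a2b and slc38a2, and for platyfish slc7a7, slc7a8a and the summed slc38a2 copies.

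Because a light chain needs the heavy chain to reach the membrane, the counts of each light chain were also set per 100 counts of slc3a2a and slc3a2b together in the same library, a ratio that does not depend on scaling between libraries and was not tested. Without transcript lengths this ratio cannot be read as a ratio of molecules, but its change between groups can be followed. In platyfish slc7a6 had 1.23, 1.36 and 1.71 counts per 100 heavy-chain counts in cryoinjured libraries, against 2.94, 3.77 and 4.72 in uninjured libraries. The ratio was lower in every cryoinjured library, so the lower slc7a6 counts after injury were not matched by equally lower slc3a2a counts. In zebrafish slc7a6 had 34.7, 42.8 and 50.1 per 100 in cryoinjured libraries, against 31.4, 44.5 and 17.2 in uninjured libraries, and these overlapped.

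The other platyfish light chains had higher mean ratios to the heavy chain after injury. Since the mean of slc3a2a was itself 0.685 times the uninjured level, a light chain with equal counts in both groups has a higher ratio in cryoinjured libraries. The share of all genes whose ratio to slc3a2 would not overlap between groups was not computed. Platyfish slc7a7 had 8.34, 8.07 and 7.39 counts per 100 heavy-chain counts in cryoinjured libraries, against 3.47, 4.85 and 6.94 in uninjured libraries, with no overlap, although its own normalised counts overlapped. Platyfish slc7a5 had 0.242, 0.259 and 0.327 per 100 in cryoinjured libraries, against 0.160, 0.142 and 0.135 in uninjured libraries, also with no overlap but from few counts. Platyfish slc7a8a had 35.5, 32.1 and 30.1 per 100 in cryoinjured libraries, against 22.4, 22.9 and 32.2 in uninjured libraries, where uninjured replicate 3 reached into the cryoinjured range. In zebrafish slc7a8a had 48.6, 62.3 and 51.2 per 100 in cryoinjured libraries, against 50.9, 55.9 and 31.0 in uninjured libraries, and the groups overlapped.

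**Figure D3:**
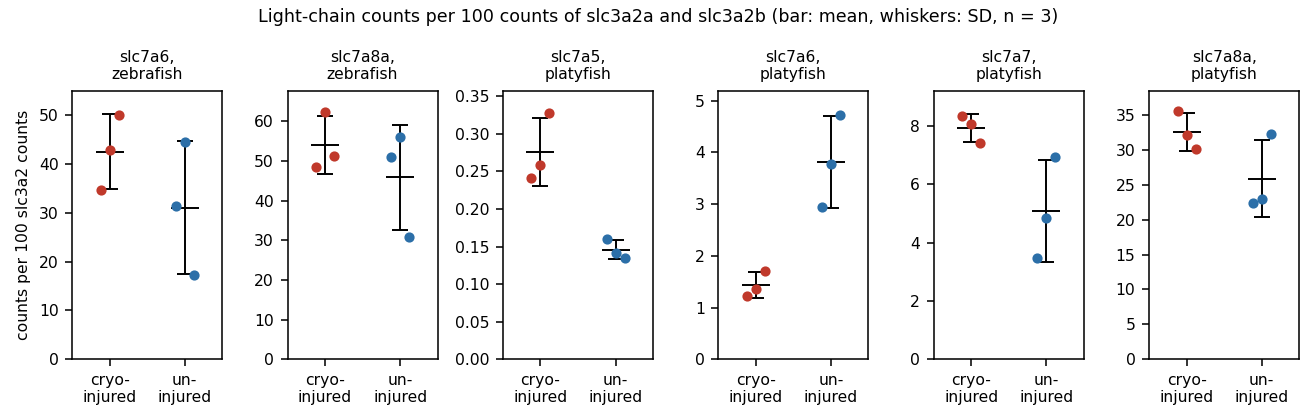
Counts of each light chain per 100 counts of slc3a2a and slc3a2b in the same library (vertical axes, each from 0), cryoinjured at the left and uninjured at the right of each panel. Points are libraries, horizontal bars are means and whiskers are SD over 3 libraries. In platyfish the ratio of slc7a6 is lower in all cryoinjured libraries (1.23 to 1.71 against 2.94 to 4.72 in uninjured ones), and those of slc7a5 and slc7a7 are higher in all of them. The platyfish slc3a2a mean was itself 0.685 times the uninjured level, which raises the ratio of a light chain with equal counts, and slc7a5 had few counts.

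The sodium-coupled carrier slc38a2, whose mammalian counterpart is raised when cells lack amino acids, passed the threshold in neither species. In zebrafish slc38a2 (ENSDARG00000045886, chromosome 4) had 4641, 6192 and 6614 normalised counts in cryoinjured libraries, against 3229.5, 4503 and 6547 in uninjured libraries. The groups overlapped because uninjured replicate 3 was nearly as high as the highest cryoinjured library. The log2 fold change was 0.29 ± 0.24 (SE, edgeR adjusted p 0.621).

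The 7 platyfish genes named slc38a2 lie on 1 chromosome, and reads from near-identical copies could be split between them or lost by the authors' counting, so single values are uncertain. Their log2 fold changes ran from -1.60 to 0.04 with edgeR adjusted p values of 0.152 to 0.979, and none passed the threshold. The copy with the most counts (ENSXMAG00000028934) had 149.7, 100.02 and 120.0 normalised counts in cryoinjured libraries, against 97.0, 361 and 116 in uninjured libraries. Uninjured replicate 2 stood far above the other 5 libraries, and the log2 fold change of -0.64 ± 0.48 (SE, edgeR adjusted p 0.459) became 0.20 without it. The copy with the largest fitted change (ENSXMAG00000027686) had 4.59, 19.4 and 5.22 normalised counts in cryoinjured libraries, against 18.9, 39.9 and 32.0 in uninjured libraries, a log2 fold change of -1.60 ± 0.61 (SE, edgeR adjusted p 0.152). One copy (ENSXMAG00000024689) separated the groups, with 8.27, 9.26 and 12.5 normalised counts in cryoinjured libraries, against 17.1, 18.4 and 17.9 in uninjured libraries (log2 fold change -0.83 ± 0.42 SE, edgeR adjusted p 0.262). Summed over all 7 copies there were 216, 214 and 235 normalised counts in cryoinjured libraries, against 216, 545 and 248 in uninjured libraries. The sum overlapped between groups, with a log2 fold change of -0.60 ± 0.33 (SE, edgeR adjusted p 0.300), and its response in zebrafish minus that in platyfish was 0.91 ± 0.45 (SE, edgeR adjusted p 0.284).

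Of the SLC43 genes, slc43a3b gave the one rise among the transporters in zebrafish. Zebrafish slc43a3b (ENSDARG00000057949, chromosome 14) had 257, 391 and 538 normalised counts in cryoinjured libraries, against 55.6, 86.9 and 79.0 in uninjured libraries. The lowest cryoinjured library was far above the highest uninjured one, and the cryoinjured libraries differed among themselves by more than the uninjured ones did. The means were 395 ± 140 and 73.8 ± 16.3 (SD, n = 3 each), a 5.35-fold higher level (log2 fold change 2.42 ± 0.30 SE, edgeR adjusted p 0.00606). The call held in 13 alternatives, with log2 fold changes of 2.13 to 2.65 and a highest adjusted p of 0.0467, reached without cryoinjured replicate 2. Without cryoinjured replicate 3 the log2 fold change was 2.13 (edgeR adjusted p 0.0279).

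Of 11 lists of cell type markers, 8 had sums that were higher in every cryoinjured than in every uninjured zebrafish library, as slc43a3b was. In platyfish, where slc43a3b was not called, this was so for 4 of the 11, fibroblast, epicardium, smooth muscle and thrombocyte. The cardiomyocyte sum was lower in every cryoinjured zebrafish library. Of single genes tested, 10.8% in zebrafish and 16.8% in platyfish were higher without overlap. Within the 8 zebrafish lists some single markers overlapped between the groups, among them dcn, pdgfra, tie1, csf1ra and acta2. The sums were scaled by library total only, unlike the normalised counts of slc43a3b and of the single genes in these shares. Scaling by library size only moved the median of all genes by 0.17 in zebrafish and 0.13 in platyfish on the log2 scale. The fibroblast sums are given above. The 6 macrophage markers summed to 88.5 to 163 CPM in cryoinjured and 35.5 to 43.5 CPM in uninjured zebrafish ventricles, with 1 of 2 tested markers higher, and most of that sum was marco. The 5 endothelial markers summed to 559 to 732 CPM in cryoinjured and 430 to 484 CPM in uninjured ventricles, with 0 of 5 called. The 3 smooth muscle markers summed to 67.5 to 79.1 CPM in cryoinjured and 17.5 to 23.4 CPM in uninjured ventricles, with 1 of 3 higher. The 5 liver markers summed to 125 to 248 CPM in cryoinjured and 10.6 to 15.8 CPM in uninjured ventricles, nearly all of it tfa. The lymphocyte, epicardium and thrombocyte lists had no marker called. The 5 lymphocyte markers summed to 4.39 to 6.46 CPM in cryoinjured and 1.48 to 2.58 CPM in uninjured ventricles. For 4 epicardium markers the sums were 3.38 to 4.10 CPM in cryoinjured and 0.786 to 1.36 CPM in uninjured ventricles, and for 2 thrombocyte markers 10.9 to 24.1 CPM in cryoinjured and 5.47 to 10.2 CPM in uninjured ventricles. Of the markers of the 8 zebrafish lists, cd4-1 alone was at 0 in every zebrafish library. Their part in the rise of slc43a3b was not tested.

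In platyfish slc43a3b (ENSXMAG00000024156, chromosome 23) was not called. It had 63.4, 95.4 and 74.1 normalised counts in cryoinjured libraries, against 96.1, 103 and 92.2 in uninjured libraries, and cryoinjured replicate 2 lay within the uninjured range. The log2 fold change was -0.32 ± 0.24 (SE, edgeR adjusted p 0.436). The response of slc43a3b in zebrafish minus that in platyfish was 2.77 ± 0.40 (SE) on the log2 scale, with an edgeR adjusted p of 0.00654. This difference passed the threshold in all 19 alternatives, at 2.47 to 3.00. The list was drawn up with earlier results of these data known, so the adjusted p values of slc43a3b are not free of that choice.

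The carrier slc43a2b was well measured in platyfish only. Platyfish slc43a2b (ENSXMAG00000010628, chromosome 11) had 2720.5, 4216.5 and 3799 normalised counts in cryoinjured libraries, against 5482, 5956 and 4274 in uninjured libraries. The groups did not overlap, but by a narrow margin between cryoinjured replicate 2 and uninjured replicate 3. This gave a log2 fold change of -0.55 ± 0.20 (SE, edgeR adjusted p 0.147), and the adjusted p ran from 0.0676 to 0.331 over 13 alternatives. Zebrafish slc43a2b (ENSDARG00000061120, chromosome 10) had 2, 4 and 4 raw counts in cryoinjured libraries and 3, 6 and 2 in uninjured libraries, too few to test. Zebrafish slc43a2a, which lies outside the set, had 646 ± 258 normalised counts in cryoinjured and 871 ± 383 in uninjured libraries (SD). Its log2 fold change was -0.43 ± 0.41 (SE, edgeR adjusted p 0.669), and it was looked at after its values had been seen. So were slc43a1a, slc43a1b and slc43a3a, of which edgeR called none in either species. Zebrafish slc43a3a had a log2 fold change of 0.49 ± 0.68 (SE, edgeR adjusted p 0.771). Platyfish slc43a3a had 0 counts, and platyfish slc43a1a had -0.86 ± 0.26 (SE, edgeR adjusted p 0.0920).

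Across the set, 6 zebrafish genes passed the filter on low counts, and 1 of them, slc43a3b, was called higher and 0 lower by edgeR at an adjusted p under 0.05. Over all 13470 zebrafish genes tested, 0.676% were called higher, 0.304% lower and 0.98% in either direction. At an unadjusted p under 0.05, 3 of the 6 were higher and 0 lower, where 8.31% of all zebrafish genes were higher and 7.15% lower. DESeq2 and limma voom each called 1 of the 6 higher and 0 lower. Over all zebrafish genes DESeq2 called 2.84% higher and 1.75% lower, and limma voom 0.624% and 0.371%. All 6 log2 fold changes were positive, with a median of 0.35 against -0.02 over all zebrafish genes tested. The groups did not overlap for 3 of the 6, slc7a6, slc7a8a and slc43a3b, all with the cryoinjured libraries higher. This was so for 21.7% of all zebrafish genes tested, 10.8% with the cryoinjured libraries higher and 10.9% with them lower.

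In platyfish 14 genes of 8 symbols were tested, of which 0 were called higher and 1, slc7a6 itself, lower. Over all 15226 platyfish genes tested, 2.7% were called higher, 1.22% lower and 3.92% in either direction. At an unadjusted p under 0.05, 0 of the 14 were higher and 4 lower, slc7a6 among them, where 13.2% of all platyfish genes were higher and 10.9% lower. DESeq2 called 0 higher and 2 lower, and limma voom 0 higher and 1 lower. Over all platyfish genes DESeq2 called 6.05% higher and 5.06% lower, and limma voom 2.3% and 1.08%. Of the 14 log2 fold changes, 3 were positive and 11 negative, 6 of these being slc38a2 copies, with a median of -0.47 against 0.01 over all genes tested. The groups did not overlap for 5 of the 14, with slc7a5 higher in cryoinjured libraries and slc7a6, slc3a2a, slc43a2b and one slc38a2 copy lower. Among all platyfish genes tested this share was 30.4%, with 16.8% higher and 13.6% lower in the cryoinjured libraries. Only 4 members could be tested for the difference between species, and 2 were called, slc7a6 and slc43a3b, both more positive in zebrafish. Of the 8098 genes in that test, 1.25% were called more positive in zebrafish, 1.36% more positive in platyfish and 2.61% in either direction. The shares more positive in zebrafish and in platyfish were 9.52% and 9.95% at an unadjusted p under 0.05, 4.18% and 3.6% with DESeq2, and 1.22% and 1.4% with limma voom. Nothing can be read from these counts of members, since slc7a6 was chosen for its values and the list was drawn up with results known.

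**Figure D4:**
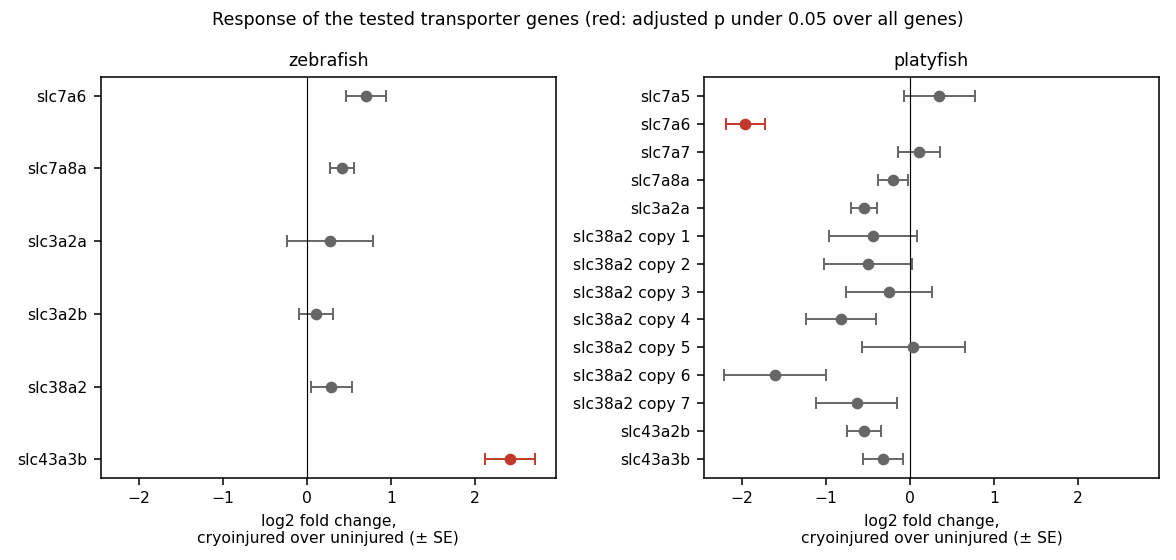
Log2 fold change of cryoinjured over uninjured libraries (horizontal axis, whiskers are SE) for each transporter gene that passed the filter on low counts, zebrafish at the left and platyfish at the right. Red points had an adjusted p under 0.05 over all genes. For platyfish slc7a6 the colour is a description and no test, since its values led to the choice of the set. In zebrafish slc43a3b stands at 2.42 and the other 5 lie between 0.11 and 0.71, while in platyfish slc7a6 stands at -1.96, and the 7 slc38a2 copies run from -1.60 to 0.04.

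The genes whose pattern was most like that of slc7a6 were sought among 8097 genes matched by symbol, by Pearson's r over 12 libraries of log2 CPM centred within each species. This is a description, and the libraries share their injury groups. The 5 highest were camk2g2 (r = 0.935), tpcn3 (0.927), npdc1a (0.915), itm2bb (0.908) and exoc6 (0.907). All 5 had a positive log2 fold change in zebrafish, of 0.15 to 0.45, and a negative one in platyfish, of -1.11 to -0.56. These signs follow from choosing genes by their likeness to slc7a6 and are no separate result. The first, camk2g2, carries the symbol of a calcium/calmodulin-dependent kinase subunit, and its log2 fold change was 0.45 in zebrafish and -1.11 in platyfish. Among the transporters slc7a8a (r = 0.606, rank 557), slc3a2a (0.588, rank 609) and slc43a3b (0.477, rank 1028) were less like it.

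The neighbouring genes of amino acid transport were counted from lists written by function, without the members. Each count of a list stands against the share over all genes by the same tool and direction, given above for each species. At an unadjusted p under 0.05 that share was 8.31% higher and 7.15% lower in zebrafish, and 13.2% and 10.9% in platyfish. Of other SLC7 and SLC3 genes 0 of 6 in zebrafish and 0 of 7 in platyfish were called by edgeR, with medians of 0.13 and 0.03. Without adjustment, at a p under 0.05, 1 was higher in zebrafish, and 2 were higher and 1 lower in platyfish. By DESeq2 1 was called higher in platyfish, and limma voom called none in either species. The gene of lowest p in zebrafish was slc7a3a, a cationic amino acid carrier, with 122 ± 42.7 normalised counts in cryoinjured and 52.8 ± 18.9 in uninjured libraries (log2 fold change 1.21 ± 0.37 SE, edgeR adjusted p 0.162). In platyfish it was slc7a11, the light chain of the cystine and glutamate exchanger and also a partner of slc3a2, with 113.9, 67.6 and 75.2 normalised counts in cryoinjured libraries, against 13.5, 46.0 and 30.7 in uninjured libraries. Its log2 fold change of 1.52 ± 0.44 (SE) missed the threshold in edgeR (adjusted p 0.0863) and passed it in DESeq2 (adjusted p 0.0182). For slc7a3a the response in zebrafish minus that in platyfish was 1.64 ± 0.38 (SE, edgeR adjusted p 0.0409), a call lost in 12 of 19 alternatives. Only 2 genes of this list could be tested for the difference, and slc7a3a was the 1 called.

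Of other SLC38 and SLC43 genes 0 of 13 in zebrafish and 0 of 11 in platyfish were called, with medians of 0.36 and -0.09. An unadjusted p under 0.05 was found for 4 higher genes in zebrafish and for 1 higher and 3 lower in platyfish, where DESeq2 called 3 lower and limma voom none. Over all genes that p was found for 8.31% higher in zebrafish, and for 13.2% higher and 10.9% lower in platyfish. DESeq2 called 5.06% of all platyfish genes lower. The lowest p in platyfish was that of slc38a5b, a glutamine carrier, with 2091 ± 319 normalised counts in cryoinjured and 3650.4 ± 1129.8 in uninjured libraries (log2 fold change -0.80 ± 0.23 SE, edgeR adjusted p 0.0850). In zebrafish slc38a3b had a log2 fold change of 0.36 ± 0.14 (SE, edgeR adjusted p 0.242). The response of slc38a3b in zebrafish minus that in platyfish was 0.96 ± 0.23 (SE, edgeR adjusted p 0.0417), the 1 call among 11 genes of this list tested for the difference. That call was lost in 11 of 19 alternatives, the replicate block among them (adjusted p 0.0903).

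Of the remaining plasma membrane and lysosomal amino acid carriers 0 of 13 were called in zebrafish and 1 of 14 in platyfish, with medians of 0.21 and -0.12. In zebrafish 3 were higher and 1 lower at an unadjusted p under 0.05, and DESeq2 called 1 higher there and limma voom none. Over all zebrafish genes 8.31% were higher and 7.15% lower at that p, and DESeq2 called 2.84% higher. The platyfish gene was slc16a10, the aromatic amino acid carrier TAT1, with 1824, 1807 and 1663 normalised counts in cryoinjured libraries, against 2738, 2829 and 2601 in uninjured libraries. The log2 fold change was -0.63 ± 0.13 (SE, edgeR adjusted p 0.0342), a call lost in 7 of 13 alternatives, among them the replicate block (adjusted p 0.0998) and scaling by library size only (adjusted p 0.120). Zebrafish slc1a5, a carrier of glutamine and other small neutral amino acids, had 279.9 ± 57.8 normalised counts in cryoinjured and 120.3 ± 47.0 in uninjured libraries. Its log2 fold change of 1.22 ± 0.30 (SE) had an edgeR adjusted p of 0.0918, and of 0.0350 with the replicate block.

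mTORC1 and its amino acid sensors, which read the amino acids that such carriers bring in, were also counted. None of 31 genes was called in zebrafish, and 0 higher and 3 lower of 39 in platyfish (10 lower with DESeq2), with medians of -0.08 and -0.15. At an unadjusted p under 0.05 the zebrafish counts were 1 higher and 2 lower, and DESeq2 called 1 higher and limma voom none. The platyfish counts were 2 higher and 12 lower of 39, where 13.2% and 10.9% of all genes were so, and limma voom called 0 higher and 3 lower. The 3 platyfish genes called by edgeR were akt1s1, or PRAS40, an inhibitor of mTORC1 (log2 fold change -1.02 ± 0.19 SE, edgeR adjusted p 0.0260), castor1, an arginine sensor (-0.71 ± 0.14 SE, 0.0342), and eif4ebp1, a repressor of translation (-0.66 ± 0.13 SE, 0.0293), the last named after its values were seen. These calls were lost in 4, 6 and 7 of 13 alternatives, and with the replicate block the adjusted p was 0.0834 for castor1 and 0.0758 for eif4ebp1. The response in zebrafish minus that in platyfish passed for 2 of 25 genes, both more positive in zebrafish, as were 1.25% of all genes in that test. They were deptor, another mTOR inhibitor (1.32 ± 0.27 SE, edgeR adjusted p 0.0223), and akt1s1 (1.09 ± 0.24 SE, 0.0332), lost in 4 and 8 of 19 alternatives. Within a species edgeR did not call deptor (adjusted p 0.117 in zebrafish and 0.175 in platyfish). DESeq2 called it higher in zebrafish (log2 fold change 0.94, adjusted p 0.0327).

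Genes of the amino acid response, which cells lacking amino acids switch on through the factor ATF4, gave 1 call in each species, of 25 tested in zebrafish and 28 in platyfish, with medians of 0.03 and 0.09. At an unadjusted p under 0.05, 7 were higher and 1 lower in zebrafish, and 8 higher and 5 lower in platyfish. The shares of all genes at that p were 8.31% higher and 7.15% lower in zebrafish, and 13.2% and 10.9% in platyfish. With DESeq2 5 were higher in zebrafish, and 6 higher and 2 lower in platyfish. Over all genes DESeq2 called 2.84% higher in zebrafish, and 6.05% higher and 5.06% lower in platyfish. By limma voom 1 was called higher and 0 lower in each species. In zebrafish cebpb, a transcription factor, had 692, 1128 and 748 normalised counts in cryoinjured libraries, against 334, 325 and 287 in uninjured libraries (log2 fold change 1.44 ± 0.20 SE, edgeR adjusted p 0.0108). Without uninjured replicate 3 the adjusted p was 0.0553. In platyfish asns, asparagine synthetase, had 172, 196 and 170.2 normalised counts in cryoinjured libraries, against 63.8, 78.7 and 101 in uninjured libraries. Its log2 fold change of 1.15 ± 0.22 (SE, edgeR adjusted p 0.0313) lost its call in 6 of 13 alternatives, among them the replicate block (adjusted p 0.0659). For psat1, an enzyme of serine synthesis, the response in zebrafish minus that in platyfish was -3.21 ± 0.70 (SE, edgeR adjusted p 0.0303), from 27.3 and 3.93 mean normalised counts in cryoinjured and uninjured platyfish. This was the 1 call among 17 genes of the list tested for the difference, and it was lost in 8 of 19 alternatives.

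Cytosolic aminoacyl-tRNA synthetases, which load amino acids onto tRNA, had 0 of 19 called in either species, with medians of -0.23 in zebrafish and 0.14 in platyfish. At an unadjusted p under 0.05, 0 were higher and 2 lower in zebrafish, and 8 higher and 2 lower in platyfish, where DESeq2 called 1 higher and 2 lower and limma voom none. The shares of all genes at that p were 8.31% higher and 7.15% lower in zebrafish, and 13.2% and 10.9% in platyfish. DESeq2 called 6.05% of all platyfish genes higher and 5.06% lower. The lowest p values were those of kars1 in zebrafish (log2 fold change -0.37 ± 0.12 SE, edgeR adjusted p 0.165) and vars1 in platyfish (0.62 ± 0.15 SE, 0.0589). For the difference between species edgeR called 0 of 17 genes of this list. The lowest p was again that of vars1, zebrafish minus platyfish -0.82 ± 0.23 (SE, edgeR adjusted p 0.0771, DESeq2 adjusted p 0.0215).

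The enzymes that break down branched-chain amino acids had the lowest medians of the 7 lists, -0.42 in zebrafish and -0.53 in platyfish, against -0.02 and 0.01 over all genes tested. Of 26 genes tested in zebrafish 22 log2 fold changes were negative, and of 24 in platyfish 23 were. Only 1 of 26 in zebrafish and 2 of 24 in platyfish passed the threshold, all lower, and limma voom called 2 and 1 lower. At an unadjusted p under 0.05, 15 were lower in each species and 0 higher, where 7.15% of all zebrafish and 10.9% of all platyfish genes were lower. DESeq2 called 5 lower in zebrafish and 12 in platyfish, where it called 1.75% and 5.06% of all genes lower. In zebrafish mccc2, a subunit of the leucine-degrading methylcrotonyl-CoA carboxylase, had 1874, 1742 and 1499 normalised counts in cryoinjured libraries, against 3022, 2472 and 3166 in uninjured libraries (log2 fold change -0.76 ± 0.14 SE, edgeR adjusted p 0.0374). In platyfish ppm1k, the phosphatase that activates the branched-chain keto acid dehydrogenase, had a log2 fold change of -1.01 ± 0.19 (SE, edgeR adjusted p 0.0289). The valine-degrading enzyme gene aldh6a1 had -1.16 ± 0.26 (SE, edgeR adjusted p 0.0490). The calls of mccc2, ppm1k and aldh6a1 were lost in 5, 6 and 7 of 13 alternatives, with adjusted p values of 0.0527 for ppm1k and 0.111 for aldh6a1 under the replicate block. For the difference between species 0 of 17 genes of this list were called by edgeR, DESeq2 or limma voom. At an unadjusted p under 0.05, 1 was more positive in platyfish, as were 9.95% of all genes in that test. The lowest p was that of dbt, zebrafish minus platyfish -1.51 ± 0.52 (SE, edgeR adjusted p 0.133). In zebrafish dbt had means of only 4.39 and 20.2 normalised counts in cryoinjured and uninjured libraries.

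**Figure D5:**
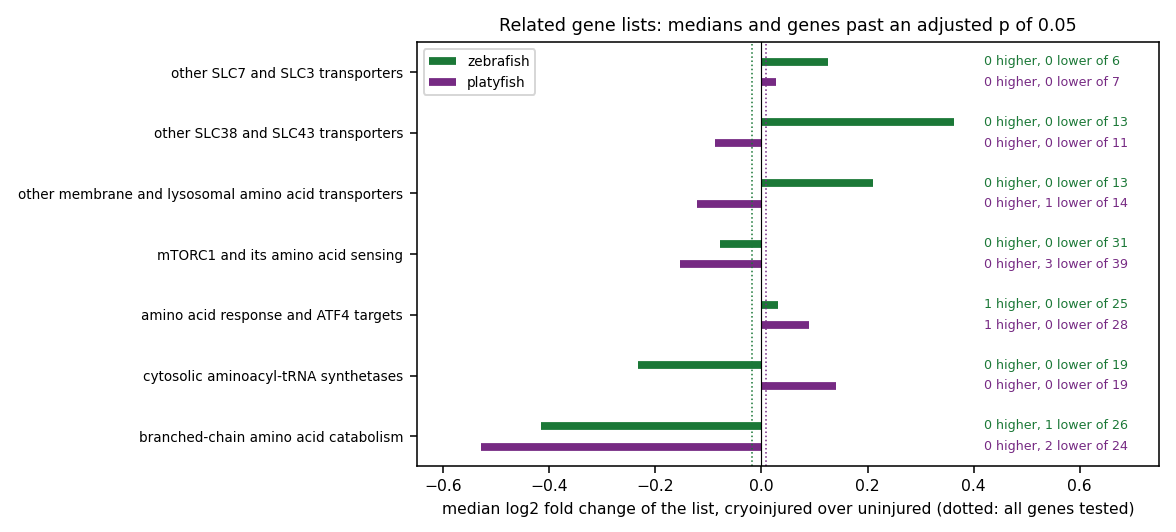
Median log2 fold change of cryoinjured over uninjured libraries (horizontal axis) for 7 lists of genes related to amino acid transport and use, without the transporter set itself, zebrafish in green and platyfish in purple. Dotted lines are the medians over all genes tested, and the numbers count genes past an adjusted p of 0.05. Branched-chain amino acid catabolism has the lowest medians, -0.42 in zebrafish and -0.53 in platyfish.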

How the data were processed

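RNA was extracted with Trizol, treated with DNase and made into TruSeq Stranded mRNA libraries, per the labels' protocols. FastQC, HISAT2 2.2.1, featureCounts 2.0.1 and DESeq2 1.38.3 were used by the authors, per the submitters' processing notes. Those notes name the build GRCz11 for all libraries; the platyfish build and the strand setting are not given in the sources used here. The authors deposited raw counts per gene, used here unchanged. They also deposited a normalised count signal, each column of which was found to equal the raw counts multiplied by a single factor, with log2 fold changes, a test score and adjusted p-values of their own. For the 3 libraries of cryoinjured platyfish the treatment label speaks of zebrafish, but their titles, organism and library names say platyfish, which was used.

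The responses were fitted within each species in edgeR 4.0.16, run under R 4.3.3 (filterByExpr, TMM, robust glmQLFit and glmQLFTest), with Benjamini-Hochberg adjustment over all genes calling genes under 0.05. Standard errors were taken as the size of the log2 fold change over the root of the F statistic. Normalised counts are counts over the effective library size, times the mean effective size of that species. The species difference was fitted over 12 libraries with 4 group means on genes matched by identical symbols, which does not establish orthology. Alternatives were other scalings, no filter, DESeq2 1.42.0, limma voom 3.58.1, the replicate number as a block, leaving out each library and, added after seeing the data, summed copies of a symbol. Summing merged only the slc3a2 and the slc38a2 genes. For any other gene that alternative nearly repeated the main fit, and it adds no support to the counts of alternatives. Methods were also run on simulated data, with changes planted only in genes with ample counts. That run does not cover members with few counts, and its outcome is not reported here. The members, the gene lists and the tests were chosen with earlier results of these data known. In each list and direction at most the 2 genes of largest change past the threshold were named. Where none passed, the gene of lowest p was named, and for likeness the 5 highest correlations. Beyond that eif4ebp1, slc7a6os, slc43a2a, slc43a1a, slc43a1b and slc43a3a were named after their values were seen.

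The labels give the replicate number under the heading batch, without saying that groups share it. Same-numbered libraries deviated from their group means with correlations of 0.134, 0.140 and 0.0123 in zebrafish, and of -0.0854, -0.184 and -0.178 in platyfish. The block was therefore kept as an alternative, and its value stands beside each result whose call it changed. The labels give separate pools of fish, so p-values measure the spread between pools. Library totals of 19073562 to 31148127 counts set the counting precision; reads carry no molecular identifiers, so limits from counts of 0 cover counting error only. Transcript lengths were not used here, so levels of different genes were not compared.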

Additional observations from a re-analysis of the deposited data

Results flagged for a closer look

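The injury response of slc43a3b differed between the species in the test of the interaction of species and injury. Its log2 fold change was 2.42 ± 0.30 (SE) in zebrafish and -0.32 ± 0.24 (SE) in platyfish, a difference of 2.77 ± 0.40 (SE) with an adjusted p of 0.00654 in edgeR's quasi-likelihood test over 8098 genes. That adjusted p is not free of the choice of the list, which was drawn up with earlier results known. All 3 cryoinjured zebrafish libraries were above all uninjured ones, and 2 of the 3 cryoinjured platyfish libraries were below all uninjured ones. The response of slc7a6 also lay far apart in zebrafish and platyfish, given here as a description. The log2 fold changes of slc7a6 were 0.71 ± 0.24 (SE) in zebrafish and -1.96 ± 0.23 (SE) in platyfish, a difference of 2.69 ± 0.36 (SE). The groups did not overlap in either species, and the directions were opposite, but in zebrafish the gap was small and no rise was shown. Groups did not overlap for 21.7% of all zebrafish and 30.4% of all platyfish genes tested. The species difference of slc7a6 is among the values that led to the choice of the genes, so no p is given for it.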

How the results depend on the processing

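The calls of slc43a3b in zebrafish and of the species difference of slc43a3b held under each alternative run, as given above. For slc7a6 the log2 fold change moved little in platyfish, from -2.13 to -1.82. In zebrafish it ran from 0.44, without cryoinjured replicate 3, to 0.88. Scaling by library size only moved the median of all genes by 0.17 in zebrafish and 0.13 in platyfish on the log2 scale, and turned slc7a6os in zebrafish to 0.14. Leaving out 1 library gave log2 fold changes of -0.27 to 0.58 for zebrafish slc3a2a, -0.044 to 0.37 for zebrafish slc3a2b, -0.16 to 0.072 for zebrafish slc7a6os and -0.12 to 0.36 for platyfish slc7a7. For the platyfish slc38a2 copies that changed sign the ranges were -0.97 to 0.20, -0.74 to 0.15, -0.52 to 0.091 and -0.43 to 0.88. None of these 8 passed the threshold under any alternative. Counts over all genes depended more on the processing. In zebrafish 91 genes were higher and 41 lower in edgeR, 224 and 5 by library size only, 270 and 247 without a filter, and 367 and 227 with DESeq2. In platyfish 411 were higher and 186 lower, 920 and 770 with DESeq2, and 104 lower by library size only. For the difference 101 were higher and 110 lower, 338 and 291 with DESeq2, and 73 lower by library size only. With the replicate block 65 genes were lower in zebrafish, 203 higher and 53 lower in platyfish, and 42 and 49 for the difference; no call among the 10 symbols changed. Leaving out 1 library gave 27 to 165 higher and 1 to 123 lower genes in zebrafish, 21 to 572 and 6 to 436 in platyfish, and 32 to 190 and 33 to 278 for the difference, with the highest zebrafish counts without cryoinjured replicate 1 and the lowest platyfish counts without uninjured replicate 1. The causes were not tested. Few counts limit what can be read from zebrafish slc43a2b and platyfish slc7a5, slc3a2b and most slc38a2 copies.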
